A study of Drosophila melanogaster with 12 samples.

Results

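The set described here holds 150 transcripts of Drosophila melanogaster larvae that were higher after rapamycin feeding in control larvae. In larvae without REPTOR they rose by less than 1 part in 3 as much on a log2 scale, or fell. The cut-offs set no lower limit on a fall. They were chosen from 15868 transcripts with a FlyBase transcript identifier among the 25857 sequence targets of the array. The choice was made on the authors' normalised values, taken to log2, with the brightest probe standing for each transcript. A control effect (mean of the rapamycin arrays minus mean of the ethanol arrays) of at least 1 was found for 753 transcripts, and in 529 of these every control rapamycin array lay above every control ethanol array. The knockout effect was below 1 part in 3 of the control effect in 339, and the 150 with the largest control effect form the set. A difference of 1 on this scale is a 2-fold difference in signal. The transcripts of mio, Wdr59 and Wdr24 were left out beforehand by name. The gene f-cup was to be left out as well, but only these 3 transcripts were matched by name. An f-cup transcript may therefore be among the unnamed members. The files name the members by FlyBase transcript identifier only, and none of the 150 matched a gene symbol in the tables used here, so they are described by identifier and without a function.

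Target of rapamycin complex 1 (TORC1) is a protein kinase complex that promotes growth when nutrients and growth factors are plentiful, and rapamycin inhibits it. REPTOR is a basic leucine zipper transcription factor of Drosophila that TORC1 phosphorylates and keeps in the cytoplasm. When TORC1 activity drops, REPTOR moves to the nucleus and, with its partner REPTOR-BP, activates transcription of target genes. Rapamycin feeding in larvae with and without REPTOR asks which responses need the factor.

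Total RNA from whole larvae, all labelled female and taken 48 h before wandering, the stage at which larvae leave the food, was measured on 12 single-colour Agilent arrays. The 4 groups of 3 biological replicates were w1118 control larvae on food with ethanol, the carrier, control larvae on food with 200 µM rapamycin, and REPTOR knockout larvae on each of these foods, with 6 h of feeding in every group. The knockout allele and its genetic background are not given in the sources used here, so any background difference from w1118 is part of each comparison between genotypes. No probe matched the symbol REPTOR, and the genotype label was therefore not checked through the targeted gene. Of 43602 non-control spots per array, 72.5% to 82.7% rose well above background, and saturation was found in 0. The arrays came on 3 slides. Slide 1 held the control ethanol arrays and control rapamycin replicate 1, slide 2 held control rapamycin replicates 2 and 3 and knockout ethanol replicates 1 and 2, and slide 3 held the remaining knockout arrays. The male dosage compensation RNA roX2 was well above background on 4 arrays, at -1.29 (log2, relative to the array's 75th percentile) in control rapamycin replicate 3, 0.0079 in knockout rapamycin replicate 1, -1.10 in replicate 2 and -5.83 in replicate 3. On the other arrays it lay between -9.06 and -6.90. The part of these arrays in the results was not tested, and values without the 3 arrays with the highest roX2 level are given beside the results. Those values leave knockout rapamycin replicate 3, itself well above background for roX2, as the only array of its group.

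The median level of the members set the 3 control rapamycin arrays apart from all others, which follows largely from the choice of members. Levels are given as log2 of the processed signal relative to the 75th percentile of the same array, and the level of a member is compared only with itself on other arrays. The median member level was 0.21, 0.01 and 0.18 on the control ethanol arrays and 2.15, 2.21 and 2.17 on the control rapamycin arrays. On the knockout arrays it was 0.13, 0.35 and 0.28 with ethanol and 0.35, 0.50 and 0.63 with rapamycin. The knockout rapamycin arrays thus lay slightly above the ethanol arrays of both genotypes, and knockout ethanol replicate 2 reached the lowest of them. In whole larvae, fewer cells of a type and less RNA per cell cannot be told apart.

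**Figure D1:**
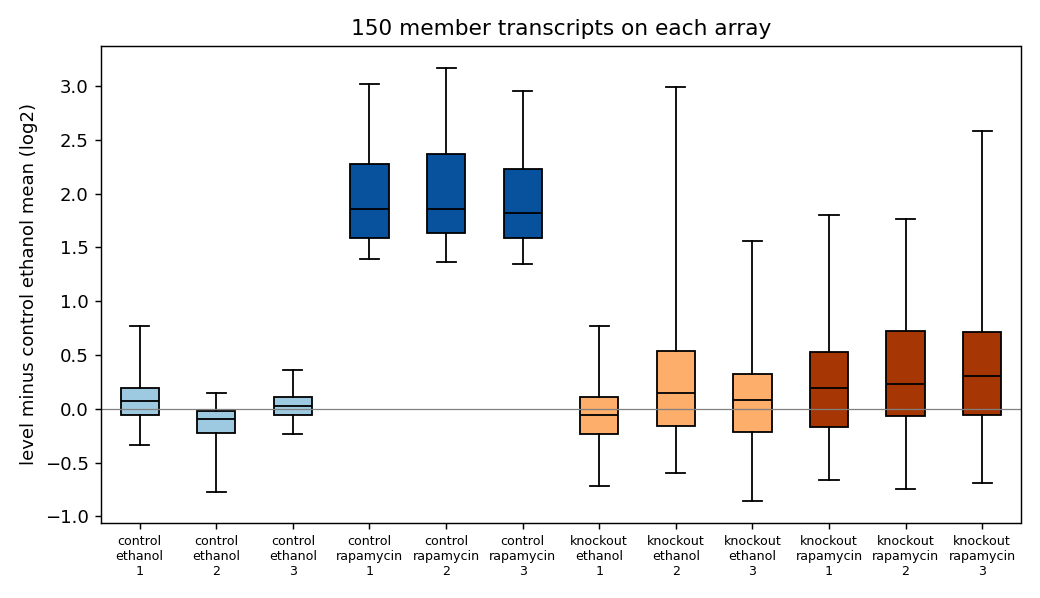
Level of the 150 members on each of the 12 arrays (log2), each relative to its own mean over the control ethanol arrays. Boxes span the quartiles with the median as a line, and whiskers run from the 5th to the 95th percentile of the members. The medians of the 3 control rapamycin arrays are 1.86, 1.86 and 1.82, and those of the knockout rapamycin arrays are 0.19, 0.23 and 0.31. The choice of members largely fixes this separation.

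Both effects chose the members, so the values that follow describe them and carry no test. The control groups did not overlap in any of the 150, as the choice required, against 29.2% of all targets tested with every control rapamycin array above every control ethanol array. On the array-level scale used for all levels below, the control effect of the members ran from 1.34 to 6.73 with a median of 1.86, against a median of 0.05 over the 19110 targets tested. The knockout effect ran from -2.23 to 1.20 with a median of 0.21, against 0.01 over all targets tested. It was above 0 in 114 members and below 0 in 36. Centred on the array median instead, the knockout median of the members was -0.11 and that of all targets tested -0.31, so its sign depended on the scaling, while the members stayed above the rest by about the same step. Without the 3 arrays with the highest roX2 level the medians were 1.86 in control and 0.26 in knockout larvae, the latter from a single knockout rapamycin array.

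Values within slides come from arrays that the choice used, so they describe the members and test nothing. Each rests on a single rapamycin or ethanol array. The median control effect was 1.86 against the control rapamycin array that shared slide 1 with the control ethanol arrays. On slide 3, which held knockout ethanol replicate 3 and all knockout rapamycin arrays, the median knockout effect was 0.19.

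**Figure D2:**
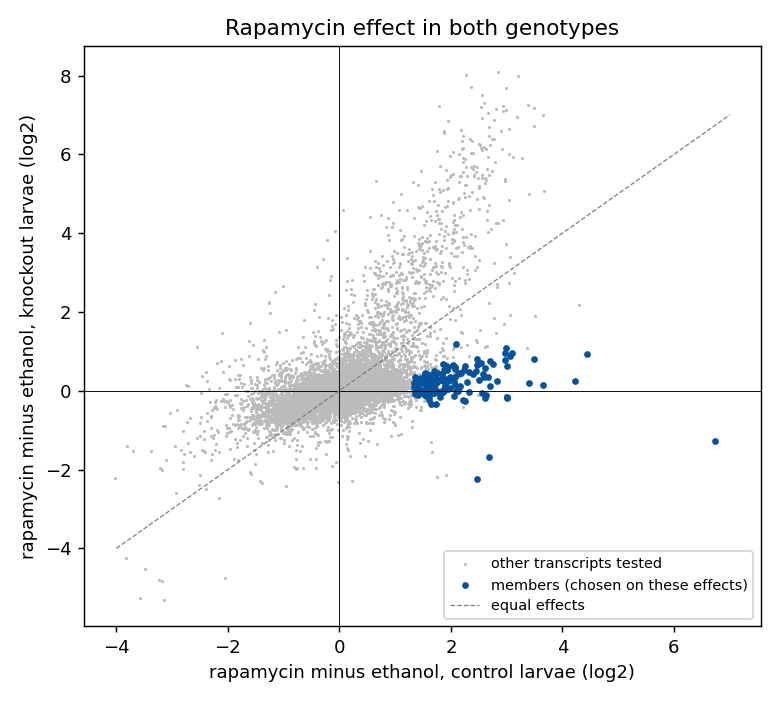
Rapamycin minus ethanol difference (log2) in control larvae on the horizontal axis and in knockout larvae on the vertical axis for 13849 transcripts tested, members in blue. The members were chosen on these effects and lie at the right, below the line of equal effects, from 1.34 to 6.73 in control larvae. Most lie near 0 on the vertical axis, which runs from -2.23 to 1.20 for them. A separate group of transcripts outside the set rises above that line.

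In the normalised values used for the choice, 47 members had a control effect of 2 or more and 8 of 3 or more. The ratio of the knockout to the control effect had a median of 0.105. It was under 0.1 in 73 members and 0.2 or more in 34. The set therefore holds a graded range of knockout effects and is not made of transcripts with no change at all in the knockout.

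The widest control effect belonged to FBtr0087746. Its level was -4.69, -5.24 and -1.95 on the control ethanol arrays and 2.75, 2.88 and 2.69 on the control rapamycin arrays. In the knockout it was -5.03, -0.97 and -5.30 with ethanol and -4.47, -5.52 and -5.14 with rapamycin. All 3 control rapamycin arrays lay more than 3 log2 units above every other array, although control ethanol replicate 3 and knockout ethanol replicate 2 were each far above their own groups. The control effect was 6.73 ± 1.14 (standard error of the 4-group model, n = 3 arrays per group) and the knockout effect -1.28 ± 1.14, which became 0.12 without knockout ethanol replicate 2.

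FBtr0343382 gave the same pattern with tighter arrays. It stood at 3.05, 2.61 and 2.73 on the control ethanol arrays and at 6.39, 6.57 and 6.40 on the control rapamycin arrays. The knockout arrays read 2.58, 2.60 and 3.07 with ethanol and 2.49, 3.53 and 2.64 with rapamycin. The knockout groups overlapped each other and the control ethanol group, and none of their arrays came near the control rapamycin arrays. The control effect was 3.66 ± 0.26 and the knockout effect 0.13 ± 0.26.

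FBtr0088369 had the smallest standard error among the 12 members with the largest control effect. Its control arrays read -0.13, -0.07 and -0.01 with ethanol and 2.59, 2.66 and 2.63 with rapamycin. Its knockout arrays read -0.49, -0.54 and -0.62 with ethanol and -0.43, -0.42 and -0.44 with rapamycin. Every knockout array was below every control array on either food. The knockout effect was 0.12 ± 0.06 against a control effect of 2.70 ± 0.06.

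FBtr0070821 was at 0.03, -0.26 and -0.25 on the control ethanol arrays and at 2.70, 2.74 and 2.58 on the control rapamycin arrays. With ethanol the knockout arrays read -0.26, -0.18 and -0.28, and with rapamycin -0.11, 0.05 and 0.10. The knockout arrays with rapamycin lay above those with ethanol without overlap, by 0.25 ± 0.09, which was small beside the control effect of 2.83 ± 0.09.

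FBtr0087748 read 1.86, 1.71 and 2.39 on the control ethanol arrays and 4.96, 4.98 and 5.06 on the control rapamycin arrays. Its knockout arrays were at 1.93, 3.35 and 1.96 with ethanol and at 2.34, 2.14 and 2.31 with rapamycin. Knockout ethanol replicate 2 was again the high array of its group, and no knockout array reached the control rapamycin group. The control effect was 3.01 ± 0.34 and the knockout effect -0.15 ± 0.34.

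FBtr0089735 was at 0.79, 0.43 and 0.72 on the control ethanol arrays and at 3.62, 3.73 and 3.60 on the control rapamycin arrays. In the knockout the levels were -0.07, 0.07 and 0.12 with ethanol and 0.53, 0.71 and 0.81 with rapamycin. Both genotypes were higher with rapamycin on every array, by 3.00 ± 0.11 in control and 0.64 ± 0.11 in knockout larvae, and the knockout arrays with rapamycin reached only the levels of control larvae on ethanol.

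Part of the response remained in other members with large control effects. FBtr0078217 had a control effect of 3.49 ± 0.26 and a knockout effect of 0.80 ± 0.26. FBtr0332900 gave 2.98 ± 0.22 and 0.77 ± 0.22, FBtr0302527 gave 2.97 ± 0.36 and 0.95 ± 0.36, and FBtr0077986 gave 2.98 ± 0.55 and 1.07 ± 0.55. Of these, FBtr0332900 and FBtr0302527 had every knockout rapamycin array above every knockout ethanol array. In FBtr0078217, at -1.46, -0.23 and -0.87 with ethanol and -0.34, 0.01 and 0.17 with rapamycin, the knockout groups overlapped through ethanol replicate 2. FBtr0077986 overlapped more widely, at -3.08, -2.67 and -4.03 with ethanol and -1.33, -1.79 and -3.44 with rapamycin.

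In 2 of the 12 the knockout level was already raised on ethanol food. FBtr0082176 read 1.37, -0.27 and 0.41 on the control ethanol arrays and 4.58, 4.94 and 4.66 on the control rapamycin arrays. The knockout arrays were at 3.36, 3.74 and 3.89 with ethanol and at 3.78, 4.19 and 3.78 with rapamycin. On both foods every knockout array lay above all control ethanol arrays and below all control rapamycin arrays, and the small knockout effect of 0.25 ± 0.35 came with a raised ethanol level. FBtr0085307 was at -3.04, -3.85 and -3.01 in control larvae on ethanol and at 1.34, 0.98 and 1.12 on rapamycin. Its knockout arrays read -3.44, -0.60 and -1.14 with ethanol and -1.19, -0.94 and -0.22 with rapamycin. Here knockout ethanol replicate 1 kept the control level and the other 2 lay well above it, and the difference on ethanol food did not pass the test (1.57 ± 0.63, limma adjusted p = 0.149).

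**Figure D3:**
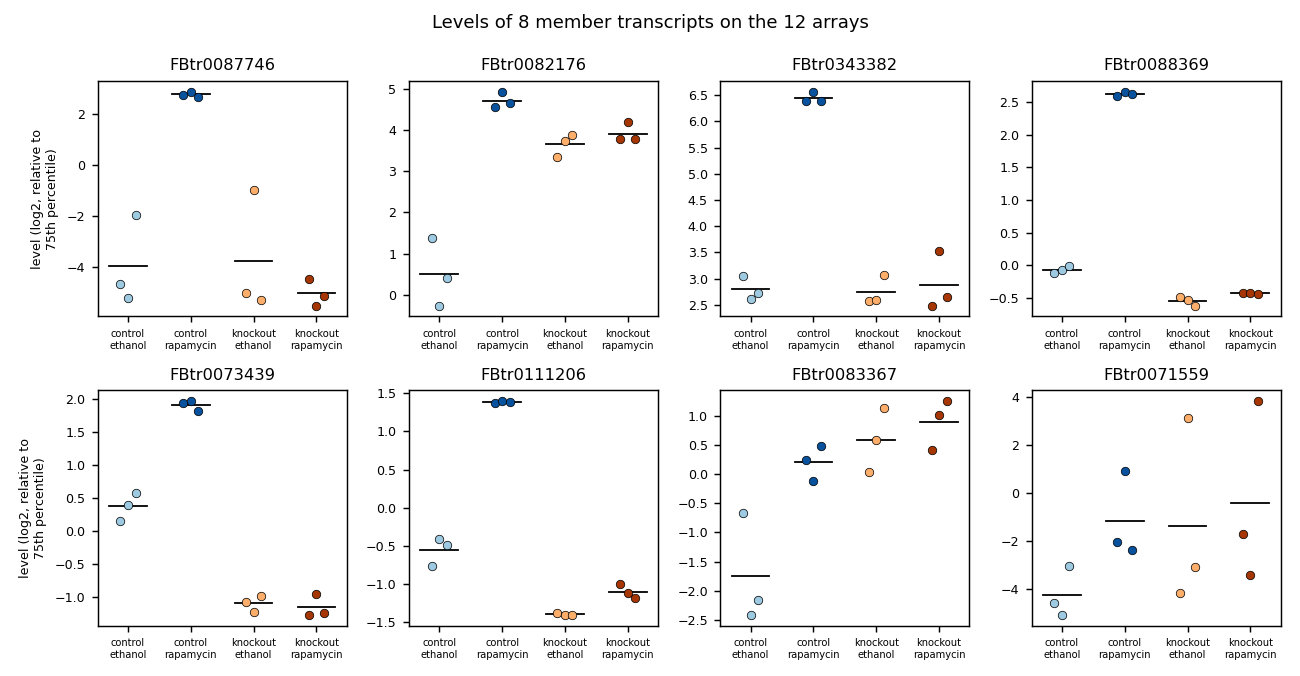
Level of 8 members on the 12 arrays (log2, relative to the array's 75th percentile), with points for arrays and lines for group means. FBtr0087746 and FBtr0343382 are high on the control rapamycin arrays alone, FBtr0088369, FBtr0073439 and FBtr0111206 are also lower in the knockout on ethanol food, and FBtr0082176 and FBtr0083367 are higher there. FBtr0071559 shows arrays that scatter from -3.41 to 3.84 within the knockout rapamycin group. FBtr0071559 and these 7 were picked for drawing after their values were seen.

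Among all members, the knockout effect was highest in FBtr0071561 (1.20 ± 0.81), FBtr0077986 (1.07 ± 0.55) and FBtr0302527 (0.95 ± 0.36), and lowest in FBtr0339757 (-2.23 ± 1.40), FBtr0087654 (-1.69 ± 1.36) and FBtr0087746 (-1.28 ± 1.14). The 3 lowest values rested on a single array. FBtr0339757 read -4.78, 0.78 and -3.33 in the knockout on ethanol and -5.31, -6.29 and -2.41 on rapamycin. FBtr0087654 read -5.90, -0.54 and -4.28 on ethanol and -5.68, -7.08 and -3.03 on rapamycin. In both, knockout ethanol replicate 2 exceeded its group by several log2 units, and without it the knockout effect was -0.61 in FBtr0339757 and -0.17 in FBtr0087654. FBtr0071561, the member with the highest knockout effect, had the same high array. Its knockout arrays were at -5.28, -1.96 and -5.81 with ethanol and at -2.98, -3.49 and -2.99 with rapamycin, and without replicate 2 the effect went from 1.20 to 2.40, above the control effect of 2.09.

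Knockout ethanol replicate 2 lay over 1 above both other arrays of its group in 13 members (8.67%), against 1.53% of all targets tested. For control ethanol replicate 1 the count was 8 members (5.33%, against 0.837%). The gap of knockout ethanol replicate 2 to the next array ran from 1.07 in FBtr0075744 to 6.20 in FBtr0071559, members named here after their values were seen. A high knockout ethanol array lowers the knockout effect and so helped a transcript to be chosen. Of the 150, 132 met the cut-offs of the choice when that array was left out, and FBtr0071559 went from a knockout effect of 0.95 to 3.20. Leaving out any of the other 11 arrays kept 142 to 150 members within the cut-offs, and 132 met them without the 3 arrays with the highest roX2 level.

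The spread between replicates differed by group. The median standard deviation of the members was 0.18 on the control ethanol arrays, 0.07 on the control rapamycin arrays, 0.20 on the knockout ethanol arrays and 0.16 on the knockout rapamycin arrays. Over all targets tested the medians were 0.13, 0.11, 0.14 and 0.14. Members were thus tighter than the average target on the control rapamycin arrays and wider in the other groups. The choice required the control groups not to overlap, which bears on these values. A standard deviation over 1 was found in 6 members with control ethanol, 1 with control rapamycin, 9 with knockout ethanol and 7 with knockout rapamycin.

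The knockout was compared with control larvae on ethanol food to ask whether the members differed by genotype before rapamycin was given. In the limma fit over all 19110 targets, 15 of the 150 members (10%) were lower in the knockout and 5 (3.33%) were higher at a Benjamini-Hochberg adjusted p below 0.05, against 3.25% and 2.73% of all targets tested. At an unadjusted p below 0.05 there were 57 members in either direction (38%, against 26.2% of all targets tested). The median difference over the members was 0.06 (quartiles -0.18 and 0.29), against -0.02 over all targets tested. Every knockout ethanol array was above every control ethanol array in 22 members (14.7%, against 14.2% of all targets tested) and below them all in 26 (17.3%, against 16%), both close to the background. Of the 150, 110 lay within 0.5 of the control, 13 were over 1 higher and 5 over 1 lower. This contrast shares its arrays with both effects used in the choice, since low control ethanol and high knockout ethanol arrays both helped a transcript to be chosen. The choice itself therefore leans towards higher values in the knockout.

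No slide held ethanol arrays of both genotypes, so no value within a slide exists for this comparison. With slide as a term in the model, 0 members were called in either direction, with 17 at an unadjusted p below 0.05 (limma; 11.3%, against 6.94% of all targets tested). Among all 19110 targets 2 were then called higher and 8 lower. The median over the members was 0.07 in that fit. Slide and genotype are thus only partly separable here. Centring on the array median left 2 members higher and 2 lower, with 0.241% and 0.392% of all targets tested. Quantile normalisation left 3 and 5, with 0.602% and 0.785% of all targets. All 15 lower and all 5 higher members kept the sign of their difference in all 24 alternative fits. Many of these fits could not change it, because they leave the ethanol group means as they were. This holds for fits without rapamycin arrays, with other filters, with the replicate block or with another variance model. The agreement in sign is therefore partly fixed in advance.

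The clearest of the members lower on ethanol food was FBtr0073439. It was at 0.14, 0.39 and 0.57 on the control ethanol arrays and at -1.08, -1.22 and -0.98 on the knockout ethanol arrays. The groups did not overlap, and the knockout was lower by 1.46 on the log2 scale (-1.46 ± 0.13, limma adjusted p = 0.00081). With rapamycin the control arrays read 1.93, 1.96 and 1.81 and the knockout arrays -1.27, -0.95 and -1.25. The difference on rapamycin food was -3.06 ± 0.13, and the knockout stayed at its ethanol level.

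FBtr0111206 read -0.76, -0.41 and -0.50 on the control ethanol arrays and -1.39, -1.40 and -1.41 on the knockout ethanol arrays. The knockout replicates were nearly identical and lay below all control arrays (-0.84 ± 0.09, adjusted p = 0.00272). On rapamycin food its control arrays were at 1.38, 1.40 and 1.39 and its knockout arrays at -1.0, -1.13 and -1.19, above the knockout ethanol arrays yet below every control array.

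FBtr0299968 was at -0.37, 0.09 and 0.54 in control and at -1.49, -0.58 and -1.62 in knockout larvae on ethanol (-1.32 ± 0.28, limma adjusted p = 0.030). FBtr0078505 was at -3.26, -3.35 and -2.95 in control and at -4.34, -3.81 and -4.62 in knockout larvae (-1.07 ± 0.20, limma adjusted p = 0.0232). FBtr0084113 was at -4.86, -5.19 and -4.97 in control and at -5.66, -5.85 and -5.85 in knockout larvae (-0.78 ± 0.17, limma adjusted p = 0.0328). In each of these 3 the ethanol groups did not overlap, with knockout ethanol replicate 2 nearest to the control in FBtr0299968 and FBtr0078505. The remaining lower members differed by -0.29 to -0.78, among them FBtr0089735 (-0.61 ± 0.11, limma adjusted p = 0.0207) and FBtr0088369 (-0.48 ± 0.06, limma adjusted p = 0.0040) from the members with the largest control effect. In all 15, every knockout rapamycin array was below every control rapamycin array, with a median difference of -2.86 on that food. The same was found in 93.3% of all members and 23.8% of all targets tested. For members already lower on ethanol food this follows from the choice.

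Of the 5 members higher in the knockout on ethanol food, FBtr0082176 differed most (3.16 ± 0.35, limma adjusted p = 0.00324), with the array values given above. FBtr0083367 was at -0.67, -2.42 and -2.17 in control and at 0.04, 0.59 and 1.13 in knockout larvae (2.34 ± 0.45, limma adjusted p = 0.0250). FBtr0077792 was at 1.55, 0.10 and 0.98 in control and at 2.47, 2.41 and 2.98 in knockout larvae (1.74 ± 0.31, limma adjusted p = 0.0206). In all 3 the knockout arrays lay above every control array, and control ethanol replicate 1 was the highest of its group. The differences of the other 2 were small. FBtr0080212 was higher by 0.57 ± 0.14 (limma adjusted p = 0.0423) and FBtr0084402 by 0.26 ± 0.07 (limma adjusted p = 0.0483).

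The counts depended on single arrays, for the members as for all targets tested. Without control ethanol replicate 1 the fit called 16 members higher and 16 lower, with 6.19% and 7.18% of all targets. Without replicate 2 it called 2 and 7 (0.351% and 0.288% of all targets), and without replicate 3 it called 1 and 5 (0.293% and 0.272%). For the knockout ethanol arrays the counts were 8 and 11 without replicate 1 (2.39% and 4.4% of all targets), 2 and 8 without replicate 2 (1.04% and 0.863%), and 1 and 6 without replicate 3 (0.392% and 0.502%). They were 3 and 11, 3 and 9, and 3 and 10 without control rapamycin replicates 1, 2 and 3, and 3 and 12 without knockout rapamycin replicate 2, where 1.42% to 1.69% of all targets were called higher and 1.68% to 1.97% lower. Without the 3 arrays with the highest roX2 level they were 1 and 7 (1.11% and 1.19% of all targets).

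**Figure D4:**
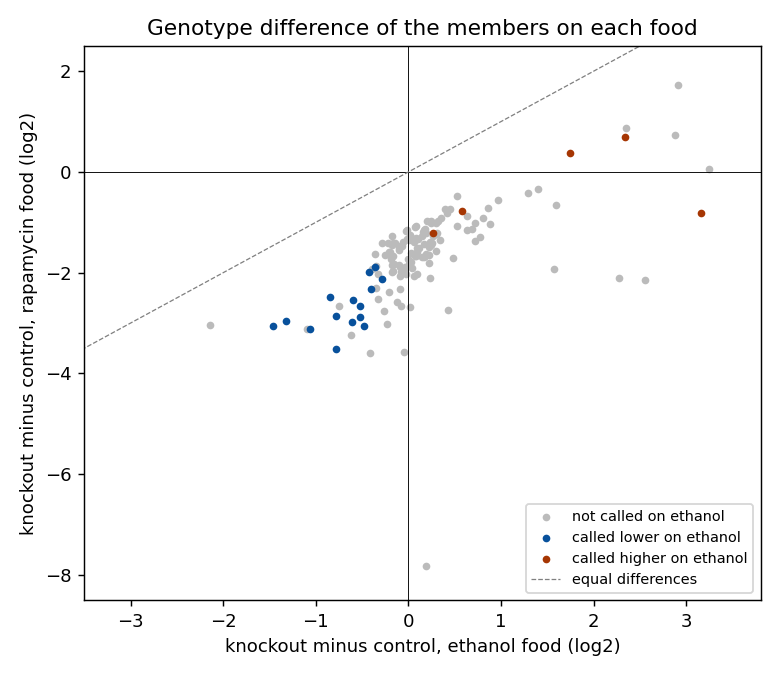
Knockout minus control difference (log2) of the 150 members on ethanol food, horizontal, and on rapamycin food, vertical, coloured by the call on ethanol food (15 lower, 5 higher, 130 not called). Both axes share the knockout and control lines but no array. All points lie under the line of equal differences, which the choice of members fixes, and 6 lie above 0 on the vertical axis, all of them at 1.74 or more on the horizontal axis.

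On rapamycin food the knockout was below the control in 144 members and at least 1 lower in 127. The difference was called lower in 134 (89.3%, limma adjusted p below 0.05, against 14.6% of all targets tested), a count that follows from the choice. The median difference was -1.58, against 0.01 over all targets tested, and -1.54 without the 3 arrays with the highest roX2 level. The last value rests on a single knockout rapamycin array. Every control rapamycin array lay above every knockout rapamycin array in 140 members (93.3%), against 23.8% of all targets tested. The knockout rapamycin arrays lay above all control ethanol arrays in 65 members (43.3%, against 23.7%) and below them all in 20 (13.3%, against 26.1%). Every knockout rapamycin array was above every knockout ethanol array in 46 (30.7%, against 17.2%), and the knockout effect was called higher in 25 (16.7%, limma adjusted p below 0.05, against 6.17%). Both genotypes' effects chose the members, so nothing is read from these shares.

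In 6 members the label of a rise that needs REPTOR did not hold in terms of level, because the knockout mean on rapamycin food was at or above the control mean. They were named after their values were seen. The knockout minus control difference on rapamycin food was 1.72 ± 1.05 in FBtr0085616, 0.87 ± 0.80 in FBtr0086325, 0.74 ± 2.19 in FBtr0071559, 0.69 ± 0.45 in FBtr0083367, 0.37 ± 0.31 in FBtr0077792 and 0.05 ± 0.86 in FBtr0083935. On ethanol food the same 6 were higher in the knockout by 1.74 to 3.25, of which FBtr0083367 and FBtr0077792 passed the test. A raised ethanol level in such members follows from the choice, since every member rose more in control than in knockout larvae. Nothing is read from it.

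FBtr0077792 shows the pattern, with its control ethanol arrays spread over 1.55, 0.10 and 0.98 and its other groups closer together. Its control arrays with rapamycin read 2.53, 2.24 and 2.56, and its knockout arrays 2.47, 2.41 and 2.98 with ethanol and 2.68, 2.91 and 2.85 with rapamycin. The knockout mean was on both foods above the mean of control larvae on rapamycin, though the knockout ethanol arrays overlapped the control rapamycin arrays. FBtr0083367 was at 0.24, -0.11 and 0.48 in control larvae on rapamycin and at 0.42, 1.01 and 1.26 in knockout larvae, with overlap between 0.42 and 0.48. FBtr0071559 scattered too widely to place. It read -2.04, 0.93 and -2.38 in control larvae on rapamycin, -4.18, 3.13 and -3.07 in knockout larvae on ethanol and -1.71, -3.41 and 3.84 on rapamycin. FBtr0085616 was well above background on only 1 of the 3 control ethanol arrays, and FBtr0087654 on 2 of the control ethanol and 2 of the knockout rapamycin arrays. The other 148 members were well above background on all 12 arrays.

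Other probes for the same transcripts were not used in the choice, though they sat on the same arrays. There were 48 of them, for 39 members, and the other 111 members had 1 probe each. The cut-offs were applied here to levels from the processed signal, not to the normalised values used for the choice. On that scale 420 of the 15865 eligible transcripts met them. A control effect of at least 1 was found for 42 of the 48, and 40 met all the cut-offs of the choice. For 32 of the 39 members every other probe met them. The median effects were 1.79 in control and 0.16 in knockout larvae, against 1.87 and 0.17 for the probes chosen. In control larvae 34 of the 48 lay within 0.25 of the chosen probe.

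Among the members named above, both other probes of FBtr0343382 gave control effects of 3.82 and 3.71 and knockout effects of 0.13 and 0.19. The other probe of FBtr0085307 gave 4.12 and 0.96, and those of FBtr0332900 gave 2.52 and 3.00 in control and 0.63 and 0.88 in knockout larvae. These repeated the values of the chosen probes within 0.5. The other probe of FBtr0071559 gave 1.58 and -0.50, against 3.09 and 0.95, with overlapping control arrays, and was well above background on 4 of the 12 arrays. In 6 other probes, named here after their values were seen, the control effect was under 1. For FBtr0084660 it was -0.26 against 1.70 for the chosen probe, for FBtr0333846 0.31 against 1.38, and for FBtr0085224 0.56 and 0.61 against 1.70. A further probe of FBtr0333846 gave 1.38. The other probes of FBtr0072265 and FBtr0076604 gave 0.87 and 0.94 against 1.90 and 2.32. For these 5 transcripts the value depended on the probe, and which part of the transcript each probe matches is not given in the sources used here.

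**Figure D5:**
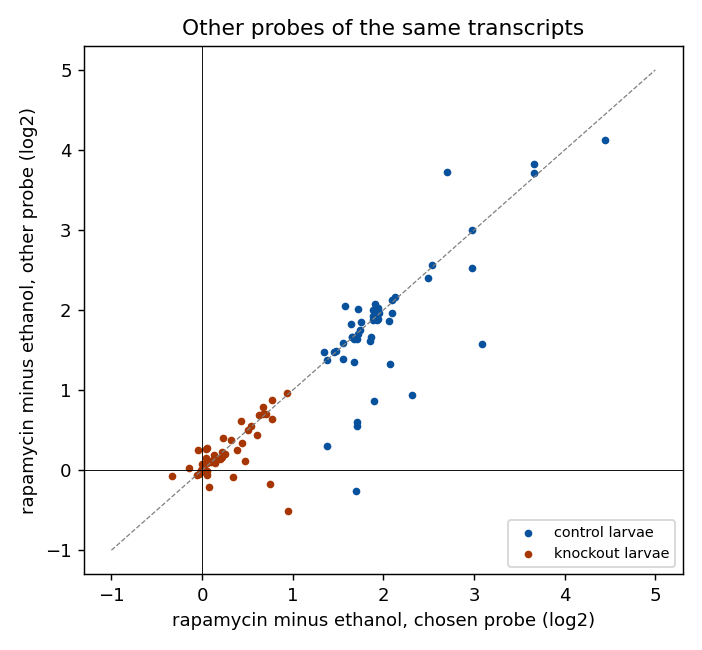
Rapamycin minus ethanol difference (log2) of the 48 other probes of 39 members, vertical, against that of the probe used in the choice, horizontal, in control (blue) and knockout larvae (brown), with the line of equal values dashed. Most points follow the line, and 6 blue points lie under 1 on the vertical axis.

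The ends of the set were not marked by gaps. In the normalised values, the control effect of the members ranked 148 to 150 (FBtr0072427, FBtr0078619 and FBtr0079885) was 1.486 each, and that of the next 3 transcripts (FBtr0300937, FBtr0080213 and FBtr0343282) was 1.485, 1.48 and 1.48. The ratio of knockout to control effect was 0.316, 0.328 and 0.333 in the members just inside the limit (FBtr0331617, FBtr0073004 and FBtr0077221). It was 0.339, 0.353 and 0.383 in the transcripts just outside it with a control effect large enough for the set (FBtr0080306, FBtr0082957 and FBtr0088548). The list is thus the upper end of a continuous range of transcripts.

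Few genes of the pathway carried a symbol. Of 25 genes of the TORC1 and REPTOR pathway 3 were measured with one. The genes mio and Wdr59, whose products are subunits of the GATOR2 complex that acts upstream of TORC1, rose in control larvae, by 1.51 ± 0.06 (limma adjusted p = 2.9e-07) and 1.71 ± 0.11 (limma adjusted p = 3.5e-06), where 20.7% of all targets tested were called higher. Wdr24, which encodes another subunit, was at 0.12 ± 0.11 (limma adjusted p = 0.405), a value that turned to -0.07 when arrays were centred on the median. In the knockout Wdr59 rose by 0.37 ± 0.11 (limma adjusted p = 0.0475), where 6.17% of all targets tested were called higher, while mio was at -0.01 ± 0.06 (limma adjusted p = 0.925). The genes mio and Wdr59 met the cut-offs that chose the members. Outside the transcripts with a FlyBase identifier, so did Nepl4, with effects of 3.11 in control and 0.41 in knockout larvae in the normalised values. The same was true of lncRNA:CR43301 (2.26 and 0.72) and lncRNA:CR33938 (1.06 and 0.31), and these 3 were named after their values were seen.

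Of 15 autophagy and lysosome genes 2 were measured with a symbol. Both rose in control larvae, where 20.7% of all targets tested were called higher. Atg10, an enzyme of the autophagy conjugation system, rose by 0.50 ± 0.06 (limma adjusted p = 9.9e-05), and CtsB, a lysosomal protease, rose by 0.50 ± 0.14 (limma adjusted p = 0.0162). Of 10 lipid and sugar mobilisation genes Hsl, a lipase that acts on stored lipid, was measured with a symbol, and it rose by 0.94 ± 0.08 (limma adjusted p = 2.0e-05). In the knockout, where 6.17% of all targets tested were called higher, Atg10 rose by 0.26 ± 0.06 (limma adjusted p = 0.0169). There CtsB and Hsl were at -0.03 ± 0.14 and -0.02 ± 0.08. Centred on the array median, Atg10 and CtsB no longer passed in control larvae (0.31 ± 0.19 and 0.31 ± 0.25), nor did Wdr59 and Atg10 in the knockout (0.05 ± 0.16 and -0.07 ± 0.19), and the sign of Atg10 turned there. With slide as a block, CtsB in control larvae (0.44 ± 0.22) and Wdr59 and Atg10 in the knockout (0.30 ± 0.16 and 0.25 ± 0.09) did not pass either. On ethanol food 0 of these 6 genes were called between genotypes (limma), and 0 had an unadjusted p below 0.05. Of all targets tested, 2.73% were called higher and 3.25% lower, and 26.2% had an unadjusted p below 0.05 (limma). With only 6 genes nothing is read from these counts. Marker genes of fat body, salivary gland, muscle, blood cells and gut had no measured symbol, so the tissue make-up of the larvae was not checked through them. Of 12 male and testis markers, roX1 (as 2 targets) and roX2 were measured. In the knockout, roX2 was at 6.16 ± 2.04 (limma adjusted p = 0.0718) and the roX1 targets at 3.00 ± 0.98 and 3.58 ± 1.09 (limma adjusted p = 0.0673 and 0.0545), and 1 of the roX1 targets passed with arrays centred on the median (3.26 ± 0.89, limma adjusted p = 0.0472). In control larvae the 3 targets were at 1.48 to 1.68 and did not pass, and their part in the members' values was not tested. Of 5 cuticle genes Cpr49Ag was measured, and it fell by 0.96 in control larvae (-0.96 ± 0.13, limma adjusted p = 0.00036, where 21.4% of all targets tested were called lower).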

How the data were processed

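The deposited values are single-colour Agilent intensities. Per the file headers, Feature Extraction 10.7 turned scanned spots into processed signal intensity, corrected for background, on a design built on dm3. The authors' normalised value table holds linear intensities of the same arrays, made by a step not given in the sources used here. Its array medians of 144 to 157 are nearly equal. It is positive throughout and was taken to log2, uncentred, for the choice of members. Levels and tests came from the processed signal, with outlier-flagged and control spots left out, log2 taken, the array's 75th percentile subtracted and spots of a probe averaged. The brightest probe of a target, by its mean in the value table, stood for it. Targets whose probe cleared background (the scanner software's own call) throughout 1 or more groups of 3 arrays were tested, which kept 19110 of 25857 targets and all 150 members. One limma model (3.58.1, R 4.3.3) with 4 groups and 8 residual degrees of freedom was fitted to all of them, with Benjamini-Hochberg adjustment, 0.05 as the threshold and the model's standard error as the error. It was first tested on simulated data. Tables and figures were made with Python 3.11.15, pandas 2.3.3, numpy 2.4.6 and matplotlib 3.10.9. The number of arrays limits the precision, and p-values measure the spread between these arrays.

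The members and gene lists were chosen with earlier results of these data known. Of the 4 contrasts only knockout against control on ethanol food was tested for members, since the others chose them or follow from the choice. The members named are the 12 with the largest control effect, the 5 largest and 5 smallest differences among those called on ethanol food, the 3 highest and 3 lowest knockout effects, and the 3 on each side of each limit. Others are said to have been named after their values were seen. The alternatives were other scaling, background correction, values, filters, slide and replicate blocks, array weights, variance model, samples and threshold, and each array left out. The fits within slide 1 and within slide 3 were added after the data were seen. For the normexp alternative (offset 50) the median spot and background signals were used in place of the planned mean signal, which the files used here do not hold. Gene symbols came from RefSeq and matched 299 of the 25857 targets. Of the members, 39 had 2 or more probes. Promoter and probe sequences are not used here.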

Additional observations from a re-analysis of the deposited data

How the results depend on the processing

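The medians over the members kept their direction in the alternatives run, except as follows. The median control effect moved from 1.86 to 1.67 with arrays centred on the median and to 1.70 with normexp and quantile normalisation, the median knockout effect from 0.21 to -0.11 and the median difference on rapamycin food from -1.58 to -1.75 with arrays centred on the median. Leaving out each array in turn gave 1.77 to 1.93, 0.117 to 0.274 and -1.58 to -1.53 for these 3, and -0.00468 to 0.121 for the median difference on ethanol food, so that its sign is not settled. Of the 150 members, 132 to 150 met the cut-offs with 1 array left out, 147 on the processed signal, 148 on the mean of all probes and 131 with a knockout effect under 1 part in 4 of the control effect. The set also depends on rank. Only 117 members stayed among the 150 largest control effects on the processed signal, and 141 on the mean of all probes. The calls on ethanol food (5 higher and 15 lower) were the most sensitive. They became 2 and 2 with arrays centred on the median, and 3 and 5 with quantile normalisation. With slide as a block they were 0 and 0. On the authors' normalised values they were 3 and 6 (0.884% and 0.984% of all targets tested). Without the filter on dim probes they were 3 and 9 (0.932% and 1.26% of the 25857 targets then fitted). Array weights gave 26 and 29 (11.8% and 12.7% of all targets tested). Leaving out the 3 arrays with the highest roX2 level gave 1 and 7. The ethanol groups alone gave 1 and 2 (0.403% and 0.377% of all targets tested). At an adjusted p below 0.01 they were 1 and 5, with no share taken over all targets. With each array left out in turn they ran from 1 to 16 and from 5 to 16. All targets tested moved too, from 521 higher and 621 lower to 46 and 75 with arrays centred on the median and 2254 and 2423 with array weights. The cause was not tested. Under array weights all 20 members called in the chosen fit were still called. Of the 10 named members called on ethanol food, those most often still called were FBtr0073439, FBtr0111206 and FBtr0082176, each in 23 of 24 alternatives.

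With the replicate number as a block, 2 members were called higher and 5 lower on ethanol food. Of all targets tested, 0.696% and 0.675% were called in that fit. Deviations of same-numbered arrays of different groups showed little positive correlation (18 pairs, correlation -0.84 to 0.169, 2 of them above 0.1). Differently numbered arrays reached 0.827, for control rapamycin replicate 3 and knockout rapamycin replicate 1. A weaker link by number could be hidden under such differences and is not excluded. Signal near background limits the values of FBtr0085616 and FBtr0087654, which were not well above it on some arrays.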

Other observations

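Identifiers of 5 pairs of members were at most 2 apart in number. In FBtr0071112 and FBtr0071113 the control effects were 1.71 and 1.64 and the knockout minus control differences on ethanol food 0.07 and 0.06. In FBtr0333846 and FBtr0333847 the control effects were 1.38 and 1.36 and the ethanol differences 0.01 and 0.01. FBtr0078504 and FBtr0078505 had control effects of 2.26 and 2.17 and ethanol differences of -0.26 and -1.07. FBtr0087746 and FBtr0087748 had control effects of 6.73 and 3.01 and ethanol differences of 0.19 and 0.43, with knockout ethanol replicate 2 the highest array of its group in both. FBtr0071559 and FBtr0071561 had control effects of 3.09 and 2.09 and ethanol differences of 2.88 and -2.14, and knockout ethanol replicate 2 was again the highest array of its group in both. The pairs were looked at after the values were seen. Whether the members of a pair come from 1 gene, or share sequence, is not given in the tables used here.

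Within the control rapamycin group, replicate 2 was the highest array in 78 members and replicate 3 the lowest in 78. Within the knockout rapamycin group, replicate 3 was the highest array in 77 members and replicate 1 the lowest in 88. The same counts were not made over all targets tested, so they are not read as a trait of the members. Control rapamycin replicate 3 and knockout rapamycin replicate 1 were among the arrays with the highest roX2 level. On these 2 arrays 82.7% and 81.8% of spots were well above background, and the part of this in the counts was not tested.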
